A study of Mus musculus with 24 samples.

Results

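The immediate early and activity-induced genes form a set of 38 genes that was chosen by name as genes known to be induced by neuronal activity, with each gene represented by the brightest of the probes whose identifier maps to its symbol. All 38 had a probe among the 39429 probes of the array, which hold 19751 named genes in all. Of the 38, 30 had 1 probe and 8 had more, 49 probes together. The set was divided into 19 fast transcription factors and 19 effectors and regulators. In F1, 37 of the 38 were well above background on all 12 arrays, and in F2 35 were; Fosl1 was well above background on 10 of 12 arrays in each generation, and Nr4a3 and Pim1 on 11 of 12 in F2. No member was saturated on any array.

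The samples were hippocampi of mice with a labelled age of 4 weeks, which themselves ate control diet. MD F1 mice had fathers, and MD F2 mice grandfathers, that received a methyl donor-rich diet (l-methionine, choline, betaine, folic acid, vitamin B12 and zinc added) for 6 weeks before mating, and CD F1 and CD F2 mice descended from males kept on the control diet. F1 mice are labelled congenic C57BL/6J x 129S6/SvEv hybrids and F2 mice mixed hybrids of the same strains. By the study's methods, the F2 came from F1 males of each diet line mated to F1 females of the control line. Each of the 4 groups had 6 single-color arrays, each a pool of 4 mice, and nothing in the labels links pools to litters or to single sires. The signal is therefore an average over mice and over all cells of the tissue, in which fewer cells of a type and less RNA per cell cannot be told apart.

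Immediate early genes are transcribed within minutes of a stimulus from pre-existing factors, without new protein synthesis. In neurons, calcium entry through NMDA receptors and voltage-gated channels activates kinases that act on CREB, bound to cyclic AMP response elements (CRE), and on SRF with its ternary complex partners, bound to CArG boxes. The products include transcription factors of the AP-1, EGR and NR4A families and effectors such as Arc and the short form of Homer1 that act at synapses. In hippocampus these transcripts rise with exploration, learning, seizures and handling, and they are used as a record of recent neuronal activity.

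Promoter sequences of Fos and of 3 members whose signal followed it from array to array in F1 (described further on) are shown because all 4 hold the core of the element that CREB binds, and that of Egr2 a CArG box as well. They are the 250 bases before the annotated start, 5′ to 3′ on the gene's strand, from RefSeq (GRCm38.p6), at chr12:85473640-85473889 for Fos (plus strand), chr6:85513590-85513839 for Egr4 (minus strand), chr15:101266596-101266845 for Nr4a1 (plus strand) and chr10:67537619-67537868 for Egr2 (plus strand, 1 of its 5 annotated windows). Of the Egr2 windows, that with the most motif matches is shown. Capitals mark the CRE core TGACG, on either strand (CGTCA), and the CArG box.
Fos: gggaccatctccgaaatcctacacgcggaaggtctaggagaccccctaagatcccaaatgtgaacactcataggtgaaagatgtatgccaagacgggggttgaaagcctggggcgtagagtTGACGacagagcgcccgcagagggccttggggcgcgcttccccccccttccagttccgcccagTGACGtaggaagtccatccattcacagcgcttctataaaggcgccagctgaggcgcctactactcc
Egr4: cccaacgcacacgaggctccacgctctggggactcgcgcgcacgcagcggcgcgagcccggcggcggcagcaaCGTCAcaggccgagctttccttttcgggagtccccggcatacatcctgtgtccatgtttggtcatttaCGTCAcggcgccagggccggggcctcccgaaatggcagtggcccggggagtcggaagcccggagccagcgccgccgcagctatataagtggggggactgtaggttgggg
Nr4a1: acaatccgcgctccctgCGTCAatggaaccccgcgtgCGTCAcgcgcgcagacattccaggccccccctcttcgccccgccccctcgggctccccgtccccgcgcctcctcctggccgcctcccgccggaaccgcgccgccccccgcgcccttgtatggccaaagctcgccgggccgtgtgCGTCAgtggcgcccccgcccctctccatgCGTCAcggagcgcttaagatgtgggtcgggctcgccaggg
Egr2: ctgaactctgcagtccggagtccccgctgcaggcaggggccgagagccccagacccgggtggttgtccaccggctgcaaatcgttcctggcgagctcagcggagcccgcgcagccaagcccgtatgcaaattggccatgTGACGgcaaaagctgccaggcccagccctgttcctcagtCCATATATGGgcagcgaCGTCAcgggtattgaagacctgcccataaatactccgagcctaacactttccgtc

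Fos and Egr4 held 2 CRE cores each, Nr4a1 held 4, and the Egr2 window held 2 with a CArG box between them, 72 bases before the start. The promoter table has windows of 250 bases before and 50 after the start for 30 of the 38 members, and Arc is among those not in it. A CRE core was present in 23 of these 30 genes (76.7%), against 23.0% of the 27025 genes with a window. The full palindrome TGACGTCA, which contains the core on both strands, was in 4 of 30 (13.3%, all genes 2.03%), the CArG box in 2 (6.67%, all genes 1.81%) and the EGR site GCGGGGGCG in 5 (16.7%, all genes 3.31%), of which all 5 were transcription factors. Windows of members were richer in bases G and C, with a median of 64.0% against 52.7% of all windows and a median of 21 CG dinucleotides against 7, and the core contains CG. A gene was counted if any of its windows matched, and sites farther than 250 bases before the start were not searched. A match describes letters in the window and not a bound site.

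The depth of the arrays is given by 27383 to 37013 spots well above background per array. Each generation was spread over 3 slides that carried 2 CD and 2 MD arrays apiece, and F1 and F2 shared no slide, so that levels are not compared between generations. MD F1 replicate 6, CD F2 replicate 6 and MD F2 replicate 3 stood apart from the other arrays of their groups. In F2, 9 pools had high Y-linked signal and low Xist and 3 the reverse (CD F2 replicates 3 and 5, MD F2 replicate 6), while F1 pools were mixed. The sex measure (mean Y-linked log2 signal minus Xist) was not balanced by diet in F1. It ranged from -2.3 to -1.89 in CD F1 and from -2.15 to 0.154 in MD F1. The median intensity of an array was also lower in MD F1 (167 to 262) than in CD F1 (251 to 318). Of the 8 neuronal markers, all were well above background on all arrays of both generations. The 8 choroid plexus markers, which mark tissue adjoining the hippocampus, had a median log2 fold change of 0.57 (MD minus CD) in F1 and -2.31 in F2, with 8 of 8 on the same side in each generation. The mean log2 signal of this list ranged from 7.50 to 10.87 in CD F1, from 7.71 to 12.06 in MD F1, from 6.87 to 12.65 in CD F2 and from 6.85 to 11.91 in MD F2.

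The first question was whether the diet of the father or the grandfather was accompanied by another level of these genes in hippocampus. No member passed an FDR under 0.1 in either generation (limma, Benjamini-Hochberg over all probes), where 0.0279% of all probes did so in F1 and 0% in F2. At an unadjusted p under 0.05 there were 3 of 38 members in F1 (Klf4, Dusp5 and Per1), 7.89% of the members against 14.5% of all probes. In F2 there were 7 (Fos, Fosb, Egr1, Egr2, Egr4, Trib1 and Csrnp1), 18.4% of the members against 5.56% of all probes. The 5 that had lower signal in MD F2 were all transcription factors, 13.2% of the members against 2.36% of all probes, and the 2 with higher signal were regulators, 5.26% against 3.2%. Which genes these were depended on the arrays and covariates, and Fos was the only one of the 5 present under each of the settings that follow. Without the 2 F2 arrays that stood apart, 4 members were lower (Fos, Egr1, Egr2 and Egr4), where 2.82% of all probes were. With the choroid plexus level as a covariate there were 3 (Fos, Fosb and Nr4a2; all probes 1.91%), and with the sex measure 5 (Fos, Egr2, Egr4, Nr4a2 and Arc; all probes 3.21%). Without the 3 arrays with Xist there were 5 (Fos, Fosb, Jund, Egr3 and Nr4a2; all probes 2.7%). In F1, 2 members had lower signal (5.26%, all probes 7.28%) and 1 had higher signal (2.63%, all probes 7.26%). Without MD F1 replicate 6 these counts were 3 and 3. Klf4, Dusp5 and Ier5 were then lower (all probes 7.82%) and Plk2, Pim1 and Per1 higher (all probes 6.56%). With the choroid plexus level as a covariate 3 were lower (Npas4, Klf4 and Dusp5, all probes 6.92%) and 1 higher (Per1, all probes 7.04%). With the sex measure as a covariate 4 were lower (Junb, Dusp5, Trib1 and Ier5; all probes 5.24%) and 3 higher (Plk2, Pim1 and Per1; all probes 4.72%), and Klf4 was not among them.

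Most members lay below 0 by small amounts in both generations. The log2 fold change was negative for 24 of 38 in F1 (63.2%, all probes 47.6%) and for 24 of 38 in F2 (63.2%, all probes 45.6%). The median was -0.08 over the members and 0.01 over all probes in F1, and -0.08 against 0.01 in F2. Transcription factors had a median of -0.10 in F1 and -0.14 in F2 and 13 and 14 of 19 below 0, while the medians of effectors and regulators were -0.01 and -0.02 with 11 and 10 of 19 below 0. The mean log2 signal over the 19 transcription factors ranged from 9.65 to 9.96 in CD F1 and 9.57 to 9.97 in MD F1, so that the arrays of the diets overlapped. In F2 it ranged from 9.58 to 9.85 in CD F2 and from 9.5 to 9.8 in MD F2. The 9.8 belongs to MD F2 replicate 1, which had no value for Egr3, a member with low signal. Its mean covers the remaining genes only and is raised by that. The arrays of the diets also overlapped in F2 without MD F2 replicate 1, by a small margin.

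**Figure D1:**
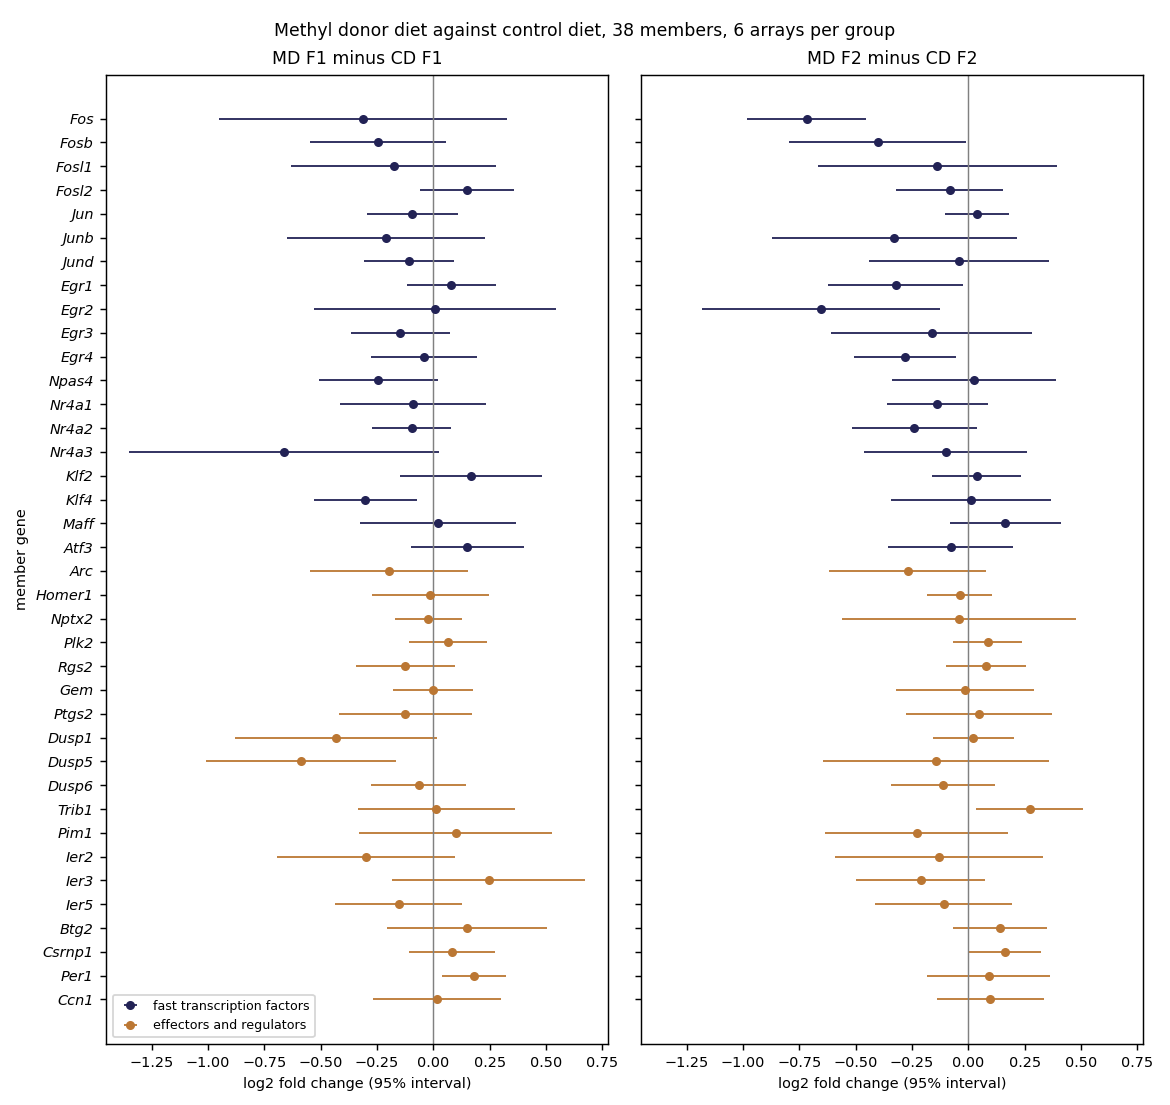
Log2 fold change of each of the 38 members (rows) between methyl donor and control diet in F1 (left) and F2 (right), with lines for the 95% interval from limma and 6 arrays per group; blue marks fast transcription factors and brown effectors and regulators. In F2 the upper end of the interval for Fos (-0.98 to -0.455) lies farther below 0 than that of any other member, and most intervals in both generations cover 0.

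Fos, the AP-1 component most used as a marker of recently active neurons, differed most in F2. Its log2 signal in CD F2 was 8.23 at the lowest, 8.63 at the median and 8.86 at the highest of 6 arrays, and in MD F2 7.62, 7.94 and 8.10. The highest MD F2 array lay below the lowest CD F2 array, a separation that 1 of 38 members (2.63%) and 0.35% of all probes showed in that comparison. The log2 fold change was -0.72 (SE 0.121), a signal 1.65-fold lower in MD F2, with an unadjusted p of 7.43e-05 and an adjusted p of 0.89 in limma. On the 3 slides the differences were -1.02, -0.73 and -0.41, and in the arrays coded lh the group means were 8.58 and 7.80 and in those coded rh 8.68 and 8.02 (3 arrays each). With the choroid plexus level as a covariate the value was -0.72, with the sex measure -0.70, without the 3 arrays with Xist -0.65, and over the 12 fits that each left out 1 array it lay between -0.80 and -0.66.

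In F1, Fos varied within the groups instead. The 3 lowest CD F1 arrays read 8.71, 9.02 and 9.09 and the 3 highest 9.83, 9.96 and 10.16, and the MD F1 arrays read 8.47, 8.82, 9.06, 9.29, 9.29 and 9.96. The CD F1 arrays thus fell apart into 3 high and 3 low, with every slide holding 1 of each kind, and the MD F1 arrays overlapped them over nearly their whole range. The log2 fold change was -0.31 (SE 0.293, unadjusted p = 0.306, limma), and it lay between -0.476 without MD F1 replicate 1 and -0.174 without CD F1 replicate 6. The effect in F1 minus that in F2 was 0.40 (SE 0.331, unadjusted p = 0.246, adjusted p = 0.805), so the F1 and F2 effects were not shown to differ.

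**Figure D2:**
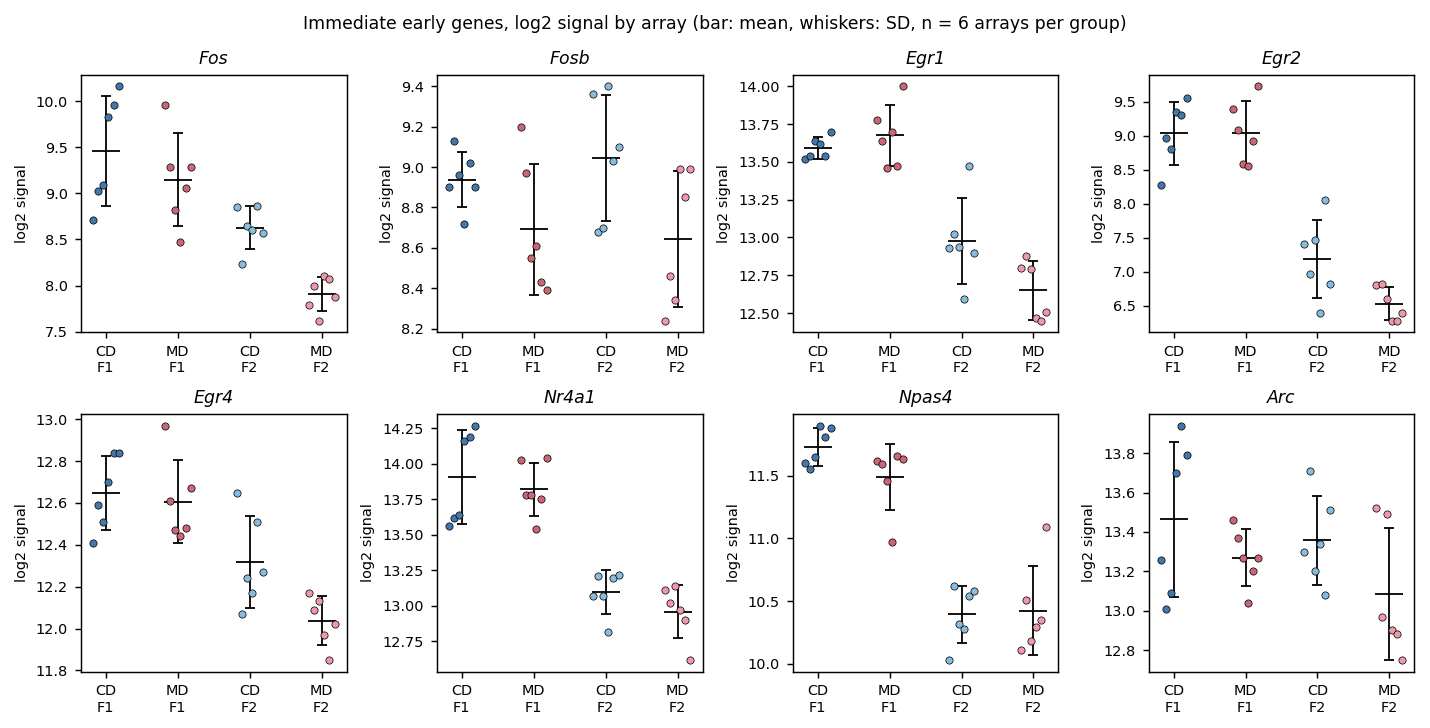
Log2 signal of 8 members on each array (points) in the 4 groups, with the mean (bar) and SD (whiskers) of 6 arrays; each panel has its own vertical scale, which does not start at 0, and F1 and F2 were normalized apart. The MD F2 points for Fos all lie at or below 8.10, under the lowest CD F2 point of 8.23, while the CD F1 points for Fos, Nr4a1 and Arc fall into a low and a high set.

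Among the other AP-1 genes, Fosb, a Fos paralogue with a long-lived splice form, read 8.68 to 9.40 on CD F2 arrays (median 9.07) against 8.24 to 8.99 on MD F2 arrays (median 8.65). The groups overlapped, with 3 MD F2 arrays below all CD F2 arrays, and the log2 fold change was -0.40 (SE 0.179, unadjusted p = 0.0452, adjusted p = 0.89). In F1 its value was -0.25 (SE 0.138, unadjusted p = 0.0999), with 4 of 6 MD F1 arrays below the lowest CD F1 array. Junb, a Jun family partner of Fos, read 6.81 to 7.82 on CD F2 arrays (median 7.52) against 6.63 to 7.82 on MD F2 arrays (median 6.79), with a log2 fold change of -0.33 (SE 0.248), and in F1 read 4.79 to 5.43 on CD arrays (median 4.94) against 4.23 to 5.42 on MD arrays (median 4.87), with -0.21 (SE 0.201). Its spread within groups was the largest of the members in F2 and neither difference exceeded it.
The remaining AP-1 and related genes had smaller differences. Jun and Jund, of the same family as Junb, differed by -0.09 and -0.11 in F1 and 0.04 and -0.04 in F2. Fosl2 had 0.15 and -0.08, and Atf3, a stress-induced factor that dimerizes with Jun, had 0.15 and -0.08. Maff, a small Maf protein, had 0.02 and 0.17, and Fosl1, close to background, ranged from 3.51 to 4.45 (median 3.88) in CD F1, 2.92 to 4.14 (median 3.86) in MD F1, 4.16 to 5.53 (median 5.25) in CD F2 and 4.28 to 5.37 (median 5.03) in MD F2 with log2 fold changes of -0.18 and -0.14. None of these reached an unadjusted p of 0.05.

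The EGR zinc finger factors bind GC-rich sites and were the family with most members among the 7 of F2. Egr1, required for lasting synaptic potentiation, read 12.59 to 13.47 on CD F2 arrays (median 12.93) against 12.45 to 12.88 on MD F2 arrays (median 12.65). In F1 it read 13.52 to 13.70 on CD arrays (median 13.58) against 13.46 to 14.00 on MD arrays (median 13.67). The log2 fold change was -0.32 in F2 (SE 0.137, unadjusted p = 0.0368, adjusted p = 0.89) and 0.08 in F1 (SE 0.0906, unadjusted p = 0.393).
Egr1 was the only member with an unadjusted p under 0.05 for the difference of the diet effects (0.41, SE 0.167, adjusted p = 0.517 in limma), 2.63% of the members against 8.21% of all probes. No member passed an FDR under 0.1 there, as 0.0127% of all probes did, and 17 of 38 differences were below 0 (44.7%, all probes 51.9%). The F2 value of Egr1 was -0.17 with the choroid plexus level as a covariate and -0.18 without the 3 arrays with Xist.

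Egr2 read 6.40 to 8.05 on CD F2 arrays (median 7.19) against 6.28 to 6.82 on MD F2 arrays (median 6.50), where 2 arrays lay below all CD F2 arrays. Its log2 fold change in F2 was -0.65 (SE 0.241, unadjusted p = 0.0193), and -1.13, -0.17 and -0.67 on the 3 slides. It moved to -0.36 with the choroid plexus level as a covariate and to -0.35 without the 3 arrays with Xist. In F1 Egr2 read 8.27 to 9.55 on CD arrays (median 9.13) against 8.56 to 9.73 on MD arrays (median 9.01), with a log2 fold change of 0.01 (SE 0.246).
Egr4, a neuronal EGR protein, read 12.07 to 12.65 on CD F2 arrays (median 12.25) against 11.85 to 12.17 on MD F2 arrays (median 12.05). Its log2 fold change was -0.28 in F2 (SE 0.104, unadjusted p = 0.0199), with 3 of 6 MD F2 arrays below all CD F2 arrays and every slide below 0 (-0.49, -0.17 and -0.19). In F1 it read 12.41 to 12.84 on CD arrays (median 12.65) against 12.44 to 12.97 on MD arrays (median 12.54), with -0.04 (SE 0.108). Egr3, for which 1 MD F2 array had no value after its spot was left out, had -0.15 in F1 and -0.16 in F2 (SE 0.102 and 0.202).

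None of the other transcription factors had an unadjusted p under 0.05 in F2 with all arrays and no covariate, though Nr4a2, Jund and Egr3 did under the settings given above. Npas4, a factor that is induced selectively by calcium entry in neurons and controls inhibitory synapse genes, read 11.55 to 11.90 on CD F1 arrays (median 11.73) against 10.97 to 11.66 on MD F1 arrays (median 11.61), with a log2 fold change of -0.24 (SE 0.121, unadjusted p = 0.0662). In F2 it read 10.03 to 10.62 on CD arrays (median 10.43) against 10.11 to 11.09 on MD arrays (median 10.32), with 0.025 (SE 0.167), a sign that turned in some fits. Nr4a1 (Nur77), an orphan nuclear receptor, ranged from 13.56 to 14.27 (median 13.90) in CD F1, 13.54 to 14.04 (median 13.78) in MD F1, 12.82 to 13.22 (median 13.14) in CD F2 and 12.62 to 13.14 (median 12.99) in MD F2.
The log2 fold changes of Nr4a1 were -0.09 (SE 0.149) and -0.14 (SE 0.102). Its paralogue Nr4a2 had -0.10 and -0.24 (unadjusted p = 0.257 and 0.084), and Nr4a3 had -0.66 (SE 0.316, unadjusted p = 0.0578) in F1, where it read 5.09 to 6.15 on CD arrays (median 5.49) against 3.42 to 5.6 on MD arrays (median 5.06), and -0.10 (SE 0.165) in F2. Without MD F1 replicate 6 the F1 value of Nr4a3 was -0.37. Klf4, a Krüppel-like factor, read 9.78 to 10.32 on CD F1 arrays (median 10.14) against 9.62 to 10.11 on MD F1 arrays (median 9.75), with 3 MD F1 arrays below all CD F1 arrays, a log2 fold change of -0.30 (SE 0.105) and an unadjusted p of 0.0141 (adjusted p = 0.261). In F2 Klf4 had 0.01, and Klf2 had 0.17 and 0.04.

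Among the synaptic effectors, Arc, which drives removal of AMPA receptors from synapses, read 13.01 to 13.94 on CD F1 arrays (median 13.48) against 13.04 to 13.46 on MD F1 arrays (median 13.27). In F2 it read 13.08 to 13.71 on CD arrays (median 13.32) against 12.75 to 13.52 on MD arrays (median 12.94), and 4 of 6 MD F2 arrays lay below all CD F2 arrays. The log2 fold changes were -0.20 (SE 0.161, unadjusted p = 0.245) and -0.27 (SE 0.159, unadjusted p = 0.117), so neither reached the threshold.
Nptx2, a secreted pentraxin that clusters AMPA receptors, had -0.02 and -0.04, and its spread within groups was 0.10 in F1 and 0.44 in F2. Its F2 values were 9.92 to 11.11 on CD arrays (median 10.64) against 10.07 to 10.89 on MD arrays (median 10.56). Plk2, a kinase of homeostatic scaling, had 0.06 and 0.09, Rgs2, which dampens G protein signals, -0.12 and 0.08, Gem, a GTPase that inhibits calcium channels, 0.00 and -0.02, and Ptgs2, the inducible cyclooxygenase, -0.12 and 0.05. None of the 5 had an unadjusted p under 0.05 with all arrays, but Plk2 did in F1 without MD F1 replicate 6 (0.137, unadjusted p = 0.0086 in limma).

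Among the feedback regulators, the MAP kinase phosphatase Dusp5 had the lowest p of the members in F1 with all arrays. Without MD F1 replicate 6, Pim1, Plk2, Ier5 and Per1 had lower ones. Dusp5 read 4.46 to 5.16 on CD F1 arrays (median 4.96) against 3.79 to 4.97 on MD F1 arrays (median 4.37). Of the MD F1 arrays, 4 lay below all CD F1 arrays. The log2 fold change was -0.59 (SE 0.193, unadjusted p = 0.0102, adjusted p = 0.246), and it was -0.11 with the median spot intensities and another background correction (normexp with an added offset). In F2 Dusp5 read 5.88 to 6.74 on CD arrays (median 6.59) against 5.83 to 7.02 on MD arrays (median 6.08), with -0.14 (SE 0.23).
Dusp1, a phosphatase of stress- and growth-activated kinases, read 9.31 to 10.16 on CD F1 arrays (median 9.84) against 8.49 to 9.69 on MD F1 arrays (median 9.48), with -0.43 (SE 0.206, unadjusted p = 0.0583), and read 9.85 to 10.20 on CD F2 arrays (median 10.12) against 9.97 to 10.21 on MD F2 arrays (median 10.06), with 0.02 (SE 0.0823). MD F1 replicate 6, which stood apart, held the lowest of these values, and without it the F1 value of Dusp1 was -0.26; with the sex measure as a covariate it was -0.125. Dusp6, a cytoplasmic phosphatase of the same family, had -0.06 and -0.11.

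Trib1, a pseudokinase scaffold for protein degradation, and Csrnp1, a nuclear protein induced by axin and growth signals, were the 2 members of F2 with higher signal in MD. Trib1 read 9.32 to 9.83 on CD F2 arrays (median 9.68) against 9.69 to 10.11 on MD F2 arrays (median 9.83), with a log2 fold change of 0.27 (SE 0.108, unadjusted p = 0.028). Csrnp1 read 10.34 to 10.53 on CD F2 arrays (median 10.41) against 10.41 to 10.77 on MD F2 arrays (median 10.57), with 0.16 (SE 0.0729, unadjusted p = 0.0446). The groups overlapped for both, both adjusted p were 0.89, and every slide was above 0 for each, by 0.57, 0.15 and 0.10 for Trib1 and 0.33, 0.14 and 0.03 for Csrnp1. Neither stayed under an unadjusted p of 0.05 with the choroid plexus level as a covariate (0.25 and 0.14) or without the 3 arrays with Xist (0.25 and 0.15), and Csrnp1 did not without the arrays that stood apart (0.17).
Per1, a clock gene that CREB also induces, read 13.53 to 13.84 on CD F1 arrays (median 13.79) against 13.85 to 14.02 on MD F1 arrays (median 13.95). All 6 MD F1 arrays lay above all CD F1 arrays, which 1 of 38 members (2.63%) and 1.83% of all probes showed as a separation in either direction. The log2 fold change was 0.18 (SE 0.0658, unadjusted p = 0.0178, adjusted p = 0.275) and 0.09 in F2; without normalization between arrays it was -0.03 in F1, where the median of all probes shifted to -0.28.
The other regulators showed smaller differences against their spread. In F1 and F2, Ier2 had -0.30 and -0.13, Ier3 0.25 and -0.21, Ier5 -0.15 and -0.11, the antiproliferative Btg2 0.15 and 0.14, the kinase Pim1 0.10 and -0.23, and the matricellular protein Ccn1 0.02 and 0.10. The unadjusted p was 0.123 or higher for each of these with all arrays. Without MD F1 replicate 6 the F1 values were 0.292 for Pim1 and -0.262 for Ier5 (unadjusted p = 0.00828 and 0.0109 in limma). Under that setting Ier2, Ier3, Btg2 and Ccn1 stayed above 0.05.

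Homer1 is the member with most probes, and they disagreed. Its product links metabotropic glutamate receptors to intracellular calcium stores, and an activity-induced short splice form interferes with that scaffold. Of its 5 probes, 2 map to 1 RefSeq transcript (transcript A, which includes the brightest probe) and 3 to another (transcript B); which of them is the short form was not determined here. The brightest probe ranged from 12.43 to 13.03 (median 12.59) in CD F1, 12.47 to 12.95 (median 12.66) in MD F1, 12.12 to 12.45 (median 12.18) in CD F2 and 12.13 to 12.22 (median 12.18) in MD F2, with log2 fold changes of -0.01 (SE 0.119) and -0.04 (SE 0.0657).
The 3 probes of transcript B differed in F1 by -0.26, -0.48 and -0.38 (unadjusted p = 0.00928, 0.00629 and 0.00556, adjusted p = 0.239, 0.22 and 0.214 in limma). The probe with -0.48 read 10.36 to 10.72 on CD F1 arrays (median 10.49) against 9.36 to 10.29 on MD F1 arrays (median 10.18), so that all 6 MD F1 arrays lay below all CD F1 arrays, and for the other 2 probes 5 of 6 did. Of all probes in F1, 1.83% separated the diets in either direction and 7.28% were lower at an unadjusted p under 0.05. Without MD F1 replicate 6, which stood apart and held the lowest value of each, the F1 values were -0.19, -0.34 and -0.29 (adjusted p = 0.2, 0.131 and 0.181). In F2 the same 3 probes had -0.17, -0.28 and -0.25 (unadjusted p = 0.174, 0.0382 and 0.0296 in limma), where 2.36% of all probes were lower at an unadjusted p under 0.05. Within groups of F1 the 3 probes correlated with each other at r = 0.70 to 0.78 over 12 arrays, MD F1 replicate 6 included, and the 2 probes of transcript A at -0.02. In F2 these values were 0.47 to 0.92 and 0.06.

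**Figure D3:**
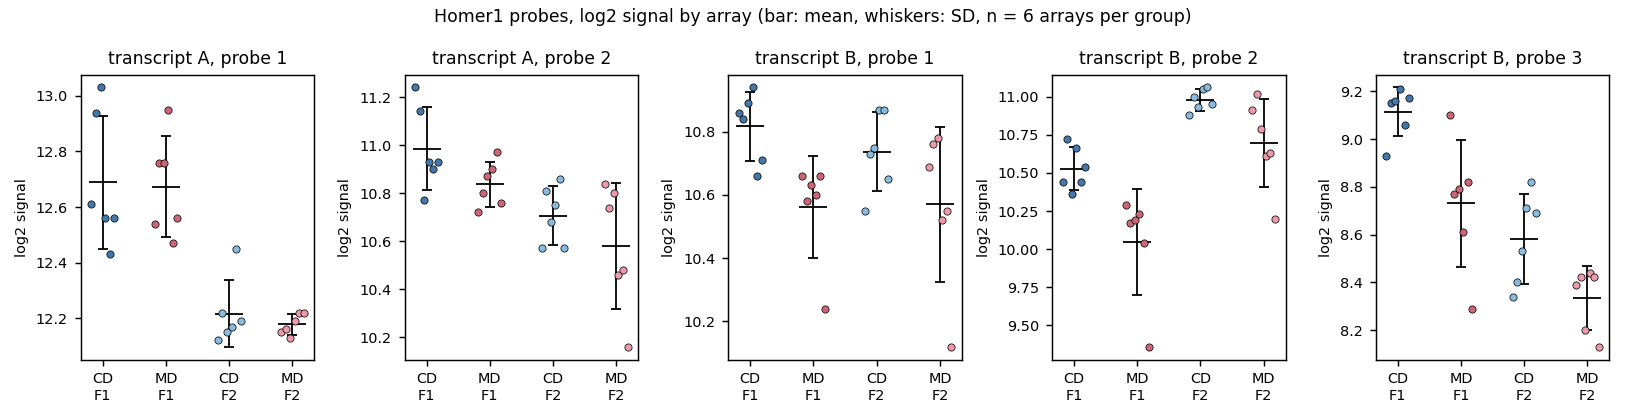
Log2 signal of the 5 Homer1 probes (panels) on each array by group, with mean (bar) and SD (whiskers) of 6 arrays; panels A and B name the RefSeq transcript a probe maps to, and each has its own vertical scale, which does not start at 0. The groups overlap for transcript A, while for transcript B probe 2 the MD F1 points lie at or below 10.29 and the CD F1 points at or above 10.36.

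Probes also disagreed for 3 more members. The other probe of Trib1 had -0.16 in F1 (unadjusted p = 0.0468) where the brightest had 0.01, and in F2 0.20 beside 0.27. The other probe of Gem had -0.26 (unadjusted p = 0.0448) and -0.30, where the brightest had 0.00 and -0.02. The other probe of Nptx2 had 0.24 and -0.54, both with an unadjusted p above 0.05.

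The next question was how these genes varied among arrays of the same group, since a transcript that records recent activity would differ between pools of mice whatever their diet. Within-group SD on the log2 scale had a median of 0.23 over 37 members and 0.18 over 29641 probes well above background in F1, and of 0.22 over 35 members and 0.19 over 23952 probes in F2. The most variable members in F1 were Nr4a3 (0.60), Fos (0.55), Egr2 (0.46), Fosl1 (0.39) and Dusp1 (0.38), and in F2 Junb (0.46), Fosl1 (0.45), Egr2 (0.44), Nptx2 (0.44) and Dusp5 (0.42). Without MD F1 replicate 6 the F1 values were 0.33 for Nr4a3, 0.29 for Fosl1 and 0.25 for Dusp1, below those of Fos (0.58) and Egr2 (0.42). With all arrays, Fos in F1 had a larger SD than 97.1% of probes, and in F2, with 0.21, a larger one than 56.8%.

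In F1 a few members varied together from array to array within groups. Over 12 arrays, with group means removed, the correlation with Fos was 0.94 for Egr4 (Spearman 0.95), 0.93 for Nr4a1 (0.92), 0.85 for Egr2 (0.87), 0.84 for Arc (0.85) and 0.76 for Npas4 (0.74). Without the 2 arrays with the most extreme Fos values the coefficients were 0.92, 0.94, 0.82, 0.88 and 0.79. Of the 36 other members, 4 had a correlation with Fos above 0.8, as did 0.401% of all probes. These coefficients describe 12 arrays, which share slides and the normalization, and no p-value is attached.
The arrays behind it were CD F1 replicates 1, 2 and 3, with Fos 0.75, 0.45 and 0.37 below their group mean, and CD F1 replicates 4, 5 and 6, with Fos 0.37, 0.50 and 0.70 above it. In MD F1, replicate 1 was 0.81 above and replicate 4 0.68 below. The number of spots well above background had a correlation of 0.59 with Fos over the same arrays, the choroid plexus level 0.06, the sex measure -0.12 and the neuronal markers -0.25, and the part of the spot count in the pattern was not tested. With slide means, the sex measure or the choroid plexus level removed as well, or with the authors' processed table, the 4 coefficients above 0.8 remained between 0.84 and 0.96.

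**Figure D4:**
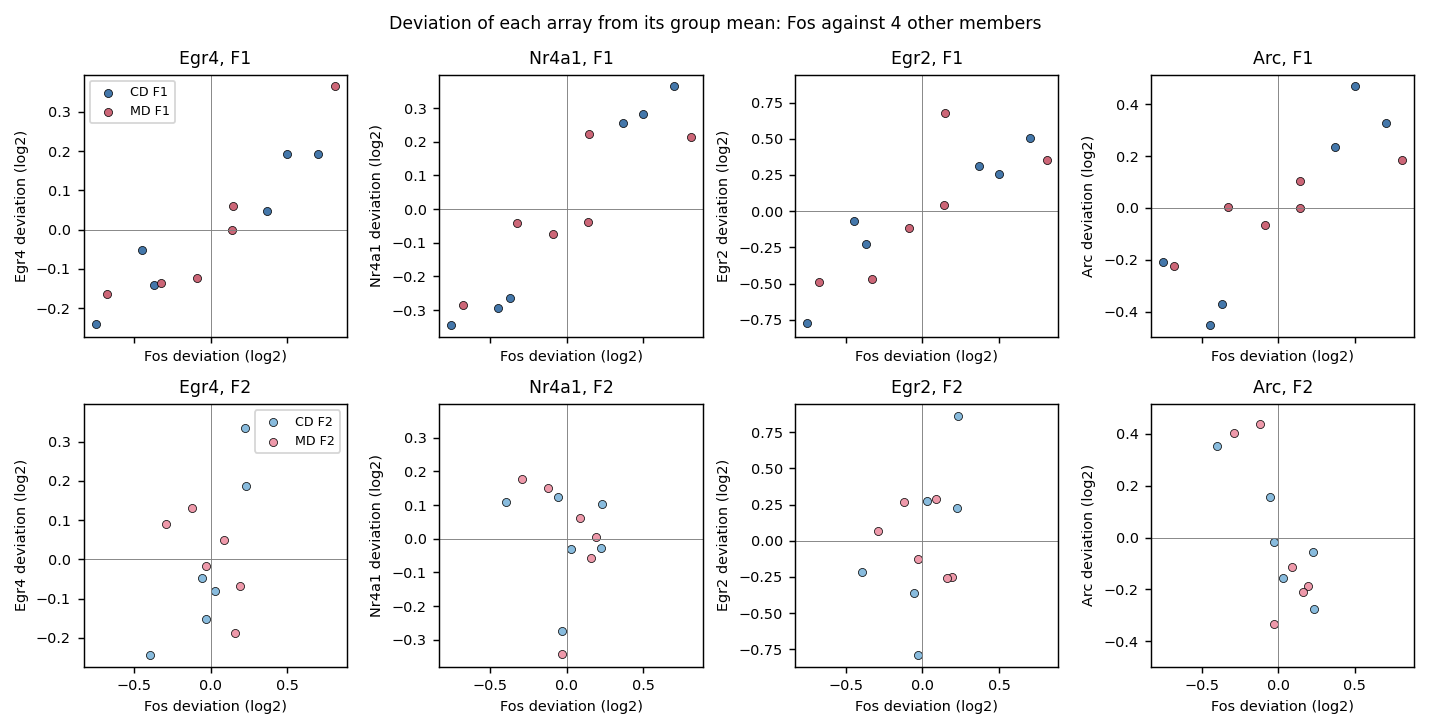
Deviation of Fos (horizontal axis) and of Egr4, Nr4a1, Egr2 and Arc (vertical axes) from the group mean, log2 scale, for each array of F1 (upper row) and F2 (lower row), with control diet in blue and methyl donor diet in red. In F1 the points run along a diagonal (r = 0.94, 0.93, 0.85 and 0.84 from left to right), while in F2 the Fos deviations span a narrower range and Arc runs the other way (r = -0.79). Without normalization between arrays the F2 value for Arc was 0.28.

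With normalization between arrays, the correlations did not extend to all members, nor to F2. Fosb had 0.28, Egr1 0.37, Junb 0.44, Nr4a3 0.24 and Dusp1 0.38 with Fos in F1, and the brightest Homer1 probe had -0.64. The median correlation over 153 pairs of transcription factors was 0.26 in F1, over pairs of effectors 0.12 and between the classes 0.12, where the median over all pairs of 29641 probes was 0.01. In F2 the medians were 0.00, 0.02 and -0.04, with 0.00 for all probes.
In F2 no member of 34 had a correlation with Fos above 0.8 (all probes 0.388%), and 6 were below -0.5 (all probes 12.9%), among them Trib1 (-0.83), Arc (-0.79) and Per1 (-0.62). The range of Fos within groups was also narrower in F2. The difference between the generations was not tested, and without normalization between arrays the median over transcription factors was 0.56 in F1 and 0.59 in F2. Under that setting the F2 correlation with Fos was 0.88 for Egr4, 0.73 for Nr4a1 and for Egr2, 0.56 for Npas4 and 0.28 for Arc. The absence of values above 0.8 in F2 and the negative sign of Arc thus depend on the normalization. Without it, differences in intensity between arrays remain in every probe (array medians of 148 to 262 in MD F2). Correlations over all probes were not computed under that setting, so its values are not shown to be particular to the members.

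**Figure D5:**
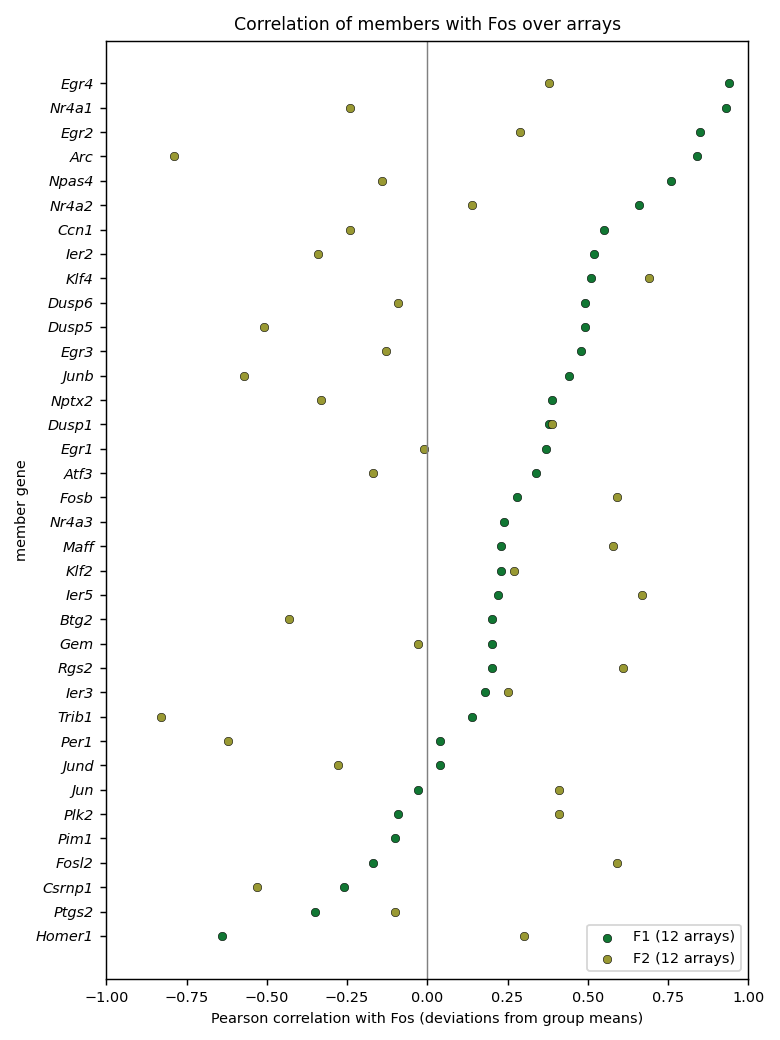
Pearson correlation of each member with Fos over 12 arrays of F1 (green) and 12 of F2 (olive), on deviations from group means, with members ordered by their F1 value; only members well above background on all 12 arrays have a point. The highest F1 points are Egr4 (0.94) and Nr4a1 (0.93), and the F2 points are spread on both sides of 0 with none above 0.8. Values are after normalization between arrays, without which Egr4 had 0.88 in F2 (correlations over all probes were not computed there).

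Outside the 38, the list of 18 other activity-induced genes held 2 with a correlation with Fos above 0.8 in F1, Crem (0.91), which encodes CREB-like activators and inducible repressors, and Nfil3 (0.86), a bZIP repressor. Scg2, a secretogranin of dense-core vesicles, had 0.76, Rheb, an activator of mTOR, 0.75 and Bhlhe40, a repressor of clock genes, -0.59. In F2 Nfil3 had 0.74, Scg2 0.65 and Crem 0.52. Among 13913 genes well above background on all 24 arrays, those that followed the mean deviation of 17 transcription factors most closely were Penk (0.84), the enkephalin precursor and itself a target of CREB and AP-1, Gmnn (0.78), Gmds (0.74), Tceal9 (0.73) and Ing1 (0.73). These coefficients were higher in F1 than in F2 for each, at 0.88 and 0.66 for Penk, 0.88 and 0.44 for Gmnn, 0.83 and 0.39 for Gmds, 0.84 and 0.42 for Tceal9 and 0.76 and 0.66 for Ing1. Penk is also among the 7 striatal markers, whose mean log2 signal ranged from 9.01 to 9.26 in F1 and from 8.68 to 9.34 in F2.

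The same list of 18 had no gene called in either generation. At an unadjusted p under 0.05 in F1, Gadd45b (-0.36), Nfil3 (-0.29), Tiparp (-0.21) and Rheb (-0.21) had lower signal in MD F1 and Bhlhe40 (0.25) had higher signal, 4 and 1 of 18 where 7.28% and 7.26% of all probes were lower and higher. In F2 Nrn1 (0.19) had higher signal, 1 of 18 where 3.2% of all probes did, and none had lower signal (all probes 2.36%). The list's median log2 fold change was -0.04 in F1 and -0.07 in F2, with 11 and 14 of 18 below 0.
Of 19 genes upstream of the immediate early genes, from NMDA receptor and calcium channel to kinases and promoter-bound factors, none was called. The factor Mef2c (-0.27) had lower signal in MD F1 at an unadjusted p under 0.05. In F2 Srf (-0.19), which binds CArG boxes, and the CREB coactivator Crebbp (-0.21) had lower and Camk2a (0.27) higher signal in MD F2, with adjusted p of 0.89 for each. The median of the list was -0.06 in F1 and -0.03 in F2, with 13 of 19 below 0 in both.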

How the data were processed

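Pools of hippocampal RNA were hybridized to 24 one-color Agilent arrays. The authors deposited scanner files whose processed signal intensity was background-subtracted by Agilent Feature Extraction (10.7.3.1 per the file headers) and not scaled between arrays, and a table of quantile-normalized intensity values, used as an alternative. From the former, control spots and flagged spots (1939 in F1, 2097 in F2) were left out, log2 values were averaged per probe and quantile-normalized within a generation (all 24 arrays together for the effect in F1 minus that in F2). Probes were tested with limma 3.58.1 in R 4.3.3, with Benjamini-Hochberg adjustment over all probes and a threshold of FDR under 0.1. The steps were tested on simulated data.

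Probe identifiers were matched to RefSeq gene symbols (26055 of 39429 probes had 1 symbol). A member's probe was its brightest over all arrays. Values are given for members with an unadjusted p under 0.05, for Fos, Egr1, Arc, Npas4, Nr4a1, Junb, Homer1 and Dusp1, and for the 5 members with the largest spread in each generation. Other genes named are the 5 whose deviations were most like the mean deviation of the transcription factors, members of the other lists at an unadjusted p under 0.05 (1 is not reported here), and Crem and Scg2, chosen after their correlations with Fos were seen. Members and lists were chosen with earlier results of these data known. Correlations were computed on deviations from group means. Promoter motifs were searched on both strands with Python 3.11.15.

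Samples were grouped by the diet and generation of the labels. Arrays are pools, and p-values measure the spread between these pools only. Replicate numbers were not used to pair the samples in the main fits. Deviations of same-numbered CD and MD arrays correlated at -0.19 to 0.29 in F1 and -0.44 to 0.44 in F2. The same number gave the best match for 0 of 6 pairs in F1 and 2 of 6 in F2. Such values cannot show whether the numbers carry a pairing. The number of arrays limits the precision. Alternatives changed the scaling, the background, the source table, the probe, the filter, the slide block, the sex and choroid plexus covariates and the arrays included.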

Additional observations from a re-analysis of the deposited data

Results flagged for a closer look

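Of 60 sets of 6 arrays (a named member in 1 group) that were searched for an array far from the others, 7 held one, and chance alone gives such an array in a small share of sets. On MD F1 replicate 6, Dusp1 read 8.49 where the next lowest array read 9.47, and Nr4a3 read 3.42 against 4.81; this array stood apart from its group over all probes. Npas4 read 10.97 on MD F1 replicate 4 (next 11.46), Klf4 10.11 on MD F1 replicate 1 (next 9.80), Dusp5 4.46 on CD F1 replicate 3 (next 4.90) and Per1 13.53 on CD F1 replicate 4 (next 13.73). In F2, Homer1 read 12.45 on CD F2 replicate 5, where the next highest array read 12.22. MD F1 replicate 1 also had the highest Fos deviation of the F1 arrays.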

How the results depend on the processing

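No member passed the threshold in F2 or in the difference of the diet effects under any setting, nor in F1 except without normalization between arrays, where 9 did and the median of the members was -0.312 beside -0.28 for all probes. Npas4, Junb, Klf4 and Dusp5 were among those 9. That setting also gave an F2 median of -0.125 and a median correlation among transcription factors of 0.56 in F1 and 0.59 in F2. It turned the sign of the F2 correlation of Arc with Fos (0.28), and correlations over all probes were not computed under it. The F2 median was -0.0403 with normexp, -0.122 with the mean of all probes of a gene and -0.0267 without the arrays that stood apart, and the F2 correlation 0.1 with the choroid plexus level removed. The cause was not tested. The F2 value of Fos lay between -0.814 and -0.513 under all settings. Signs turned for Homer1 in F1 (0.0311 with 75th percentile scaling, 0.00907 with the choroid plexus covariate, 0.00942 without the array apart), Egr1 in F1 (-0.125 without normalization, -0.0437 with the sex covariate), Per1 in F1 (-0.0269 without normalization), Npas4 in F2 (-0.0333 without normalization, -0.0163 with the choroid plexus covariate, -0.0912 without the 3 arrays with Xist) and Dusp1 in F2 (-0.0387 without normalization, -0.0021 with normexp). Leaving out 1 array gave 0 to 0 members called, medians of -0.113 to -0.0387 (F1) and -0.0973 to -0.0456 (F2), correlations of 0.18 to 0.32 (F1) and -0.03 to 0.05 (F2), and turned signs for Homer1 (-0.0694 to 0.054 in F1, -0.0575 to 0.00812 in F2), Dusp1 (-0.0189 to 0.0509 in F2) and Npas4 (-0.109 to 0.0879 in F2). With the replicate block, 0 members were called in each comparison and Fos in F2 had -0.718 (adjusted p = 0.792 in limma). Over all probes the block moved the calls from 11 to 0 in F1 and from 5 to 27 in the difference of the diet effects. The slide block and the sex covariate also gave 0 calls in F1, and the set without MD F1 replicate 6 gave 152. The choroid plexus covariate, normexp on the median spot intensity, the set without Xist arrays, the Homer1 fits without 1 array and all alternatives for correlations were chosen after seeing the data, and normexp on the mean spot intensity was not run. Dim members such as Fosl1, Nr4a3 and Pim1 are limited by background. In F1, Dusp5, Egr3, Junb and Ier2 were similarly dim, though well above background on every F1 array. Their mean log2 signals in MD F1 were 4.34, 4.36, 4.8 and 4.81, beside 5.12 for Pim1 and 4.88 for Nr4a3. In CD F1 they were 4.92, 4.5, 5.02 and 5.11, beside 5.02 and 5.55. The F1 differences of Dusp5 and Junb shrank with normexp on the median spot intensity, so their size depends on the processing.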

Other observations

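Among markers of the cell types that the dissections could hold, no gene was called in either generation (limma, FDR under 0.1). At an unadjusted p under 0.05 in F1, 2 of 8 neuronal, 1 of 6 CA field, 1 of 6 microglial, 2 of 6 thalamic and 1 of 7 striatal markers had lower signal in MD F1, and none of 4 dentate granule cell, 12 vascular and meningeal, 2 blood and 8 choroid plexus markers passed it; of all probes, 7.28% were lower and 7.26% higher at that threshold. The thalamic list had a median of -0.249 in F1, with 6 of 6 below 0, and the neuronal list -0.146, with 6 of 8 below 0. In F2, 2 of 12 vascular and meningeal, 1 of 6 microglial, 1 of 6 thalamic and 1 of 7 striatal markers had lower signal in MD F2, 1 thalamic and 2 striatal markers had higher signal, and no neuronal, dentate, CA field, blood or choroid plexus marker passed that threshold, which 2.36% (lower) and 3.2% (higher) of all probes did. Their part in the values of the immediate early genes was not tested, except for the choroid plexus level, used as a covariate. In F2 that covariate left Fos at -0.723, while the values of Egr1 and Egr2 moved toward 0, as given above. Egr1, Egr2, Egr4, Trib1 and Csrnp1 were then no longer under an unadjusted p of 0.05, and Nr4a2 was.

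The other Fosl2 probe had group means of 12.89 in CD F1 and 13.27 in MD F1, and of 7.38 in CD F2 and 7.41 in MD F2, while the means of the brightest probe lay between 11.48 and 11.83 in all groups. Generation, slide and scan cannot be told apart in this gap.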
